A study of Mus musculus with 15 samples.

Results

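The 9 transcripts Dnmt3b, Fgf5, Otx2, Adam23, Sulf1, Kcnq3, Cecr2, Frmd5 and Abcc4 carried most of their SAM68 binding sites on day 3 of differentiation. They are 9 of the 7949 genes that held a site on any day, and they were chosen by their site numbers per day, so the day 3 peak itself is a description and not a finding. SAM68 was mapped by iCLIP2, in which ultraviolet light fixes the protein to RNA and the place where reverse transcription stops marks the crosslinked base. The cells were E14 mouse embryonic stem cells at day 0, kept without feeders on gelatin in serum with LIF and inhibitors of GSK3 and MEK, and embryoid bodies of the same line at day 3 and day 10, grown in medium with serum and dissociated before crosslinking. Each day had 5 libraries. Day 3 bodies were formed in hanging drops and day 10 bodies in spheroid plates, while day 0 cells were kept on gelatin. Day and culture format therefore cannot be told apart for any day, day 3 included. All cells came from a single line that carries no other alteration in the labels. Embryoid bodies hold mixed cells, so fewer cells of a type and less RNA per cell cannot be told apart, and RNA levels were not used here.

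SAM68 belongs to the STAR family of proteins, acts mainly in the nucleus on splicing and RNA processing, and favours RNA rich in A and U. Embryonic stem cells held with LIF and these inhibitors are in the naive state of pluripotency, which resembles the epiblast before implantation. On differentiation they pass through a formative and primed state, for which Fgf5, Otx2 and Dnmt3b are classical markers, before the germ layers form.

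The deposited data are 1 list of called sites per day, with the 5 libraries of a day already combined. The lists held 29740 sites on day 0, 28266 on day 3 and 74287 on day 10, each site 5 nt wide. Without values for single libraries, no spread between replicates could be computed and no test between days was made. The lists give called sites alone, so the depth is unknown and a gene without sites is listed at 0, with no limit on its binding. Shares are given per 10000 sites of the same day's list. Intervals are exact binomial 95% intervals and cover counting error only; sites within a gene are not independent. Of 27 naive pluripotency markers, 20 held a site, with 340 sites on day 0, 29 on day 3 and 57 on day 10. Per 10000 sites these were 114, 10.3 and 7.67. Nr5a2 held 46, 2 and 0 sites and Esrrb 39, 1 and 0, whereas Lifr held 2, 2 and 19 and Stat3 3, 0 and 12. The list was chosen with earlier results of these data known, so this is a description and no check of the labels.

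Together the 9 transcripts held 35 sites on day 0, 389 on day 3 and 40 on day 10, or 11.8, 138 and 5.38 sites per 10000. The summed day 3 share was 11.7 times that of day 0 and 25.6 times that of day 10, and without Abcc4, which held most of the sites outside day 3, it was 28.3 and 78.6 times. Of the 9, 5 were listed at 0 on both day 0 and day 10, and 2, Frmd5 and Abcc4, had sites on every day. A day 3 share at least 4 times that of both other days was met by 128 of 4122 named genes with at least 5 sites (3.11%), and by all 9 transcripts, which had been picked for it. Day 3 made up between 77.1% (Abcc4) and 100% of a transcript's summed shares over the 3 days, against a median of 31.9% over the 4122 genes.

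**Figure D1:**
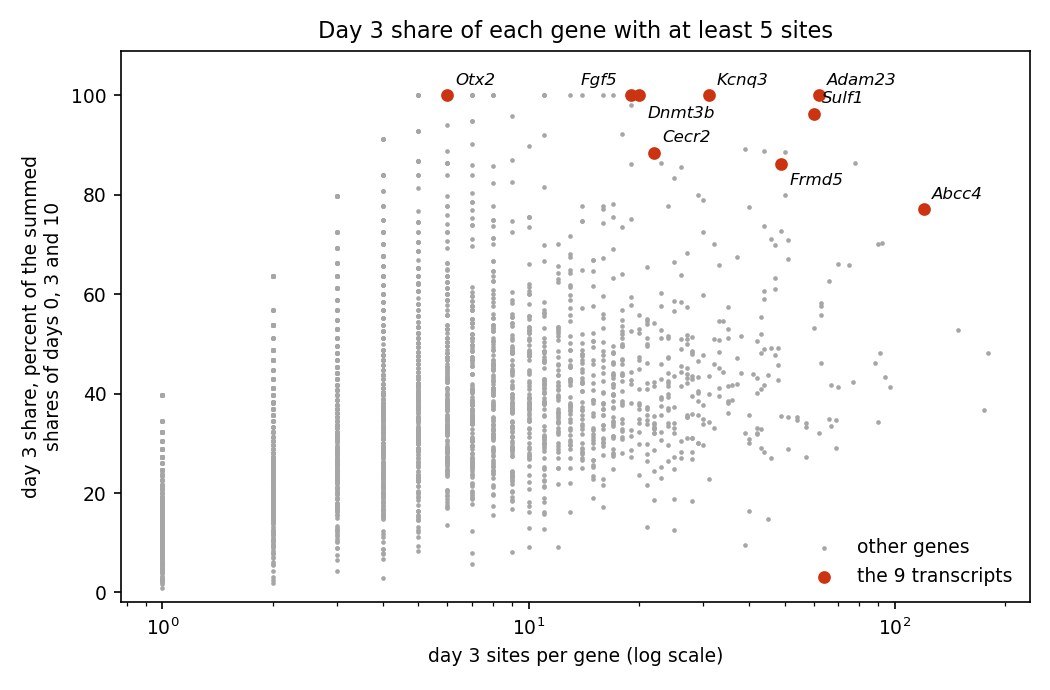
Each point is a named gene with at least 5 sites over the 3 lists and at least 1 on day 3; the x axis is its number of day 3 sites on a log scale and the y axis its day 3 share as a percent of the summed shares of the 3 days. The 9 transcripts, in red, lie at 77.1% or above, with Otx2 at 6 day 3 sites and Abcc4 at 120 as the extremes in site number.

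The markers of the primed state came first. Dnmt3b (ENSMUSG00000027478.15), which encodes a DNA methyltransferase that sets new methylation in the early embryo, held 0 sites on day 0, 20 on day 3 and 0 on day 10. Its day 3 share was 7.08 per 10000 (4.32 to 10.9). Fgf5 (ENSMUSG00000029337.2), a secreted fibroblast growth factor of the epiblast, held 0, 19 and 0 sites, a day 3 share of 6.72 (4.05 to 10.5). Otx2 (ENSMUSG00000021848.15), a homeobox transcription factor of the epiblast and later of the anterior brain, held 0, 6 and 0 sites, a day 3 share of 2.12 (0.779 to 4.62). Day 3 was the single day with any site in these 3 genes. Dnmt3b and Fgf5 had shares whose intervals lay almost on each other, and the interval of Otx2, the shortest gene, reached into both.

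Proteins of the cell surface and matrix carried more sites. Adam23 (ENSMUSG00000025964.15), a membrane protein of the disintegrin and metalloprotease family that lacks protease activity and acts in adhesion, held 0, 62 and 0 sites, a day 3 share of 21.9 (16.8 to 28.1). Sulf1 (ENSMUSG00000016918.15), a secreted enzyme that removes sulfate groups from heparan sulfate and so alters growth factor signalling, held 0, 60 and 6 sites. Its share was 21.2 on day 3 (16.2 to 27.3) and 0.808 on day 10 (0.296 to 1.76), a ratio of 26.3 (11.4 to 74.4). Adam23 was listed at 0 on day 10, whereas Sulf1 kept a few sites there.

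The transporters and channels showed contrasting patterns outside day 3. Kcnq3 (ENSMUSG00000056258.8), a subunit of the voltage-gated potassium channel behind the M current of neurons, held 0, 31 and 0 sites, a day 3 share of 11.0 (7.45 to 15.6). Abcc4 (ENSMUSG00000032849.13), an efflux transporter of organic anions and cyclic nucleotides, held 25, 120 and 31 sites. Its shares were 8.41 on day 0 (5.44 to 12.4), 42.5 on day 3 (35.2 to 50.7) and 4.17 on day 10 (2.84 to 5.92). Abcc4 was thus bound on every day, and its day 3 share was 5.05 times that of day 0 (3.26 to 8.11) and 10.2 times that of day 10 (6.81 to 15.6). Scaled by the number of bound genes in place of list length, the ratio to day 10 was 4.88 for Abcc4 and 12.6 for Sulf1.

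The last pair are intracellular proteins. Cecr2 (ENSMUSG00000071226.11), a bromodomain protein of an ISWI chromatin remodelling complex, held 3, 22 and 0 sites, with a day 3 share of 7.78 (4.88 to 11.8), 7.72 times that of day 0 (2.32 to 40.3). Frmd5 (ENSMUSG00000027238.17), a protein with a FERM domain, which links the membrane to the cytoskeleton, held 7, 49 and 3 sites. Its day 3 share of 17.3 (12.8 to 22.9) was 7.37 times that of day 0 (3.32 to 19.3) and 42.9 times that of day 10 (13.9 to 215). In the order of day 3 shares, Abcc4 stood above the other 8 with an interval clear of theirs. Below it came Adam23, Sulf1, Frmd5, Kcnq3, Cecr2, Dnmt3b, Fgf5 and Otx2, and the intervals of each neighbouring pair in this order overlapped.

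**Figure D2:**
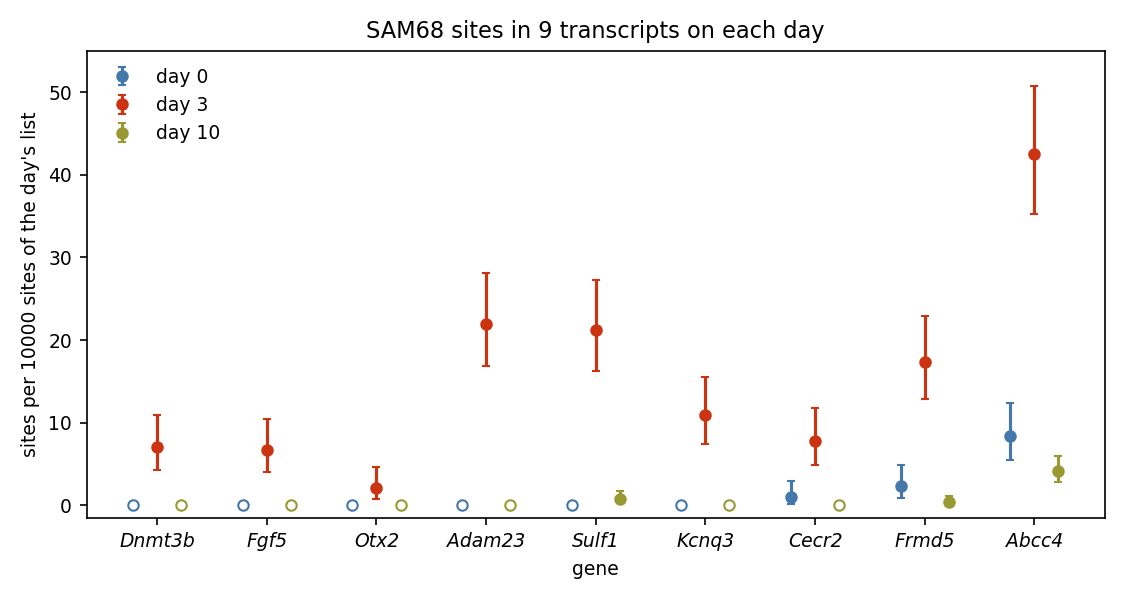
Sites per 10000 sites of each day's list (y axis) for the 9 genes (x axis), with exact 95% intervals for counting error; open circles mark genes listed at 0. The red day 3 points lie above the points of the other days in each gene, and Frmd5 and Abcc4 alone have filled points on every day.

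The genes differ in length, so they were also compared as day 3 sites per 100 kb of RefSeq span on GRCm38.p6. Fgf5 (chromosome 5, 98254184 to 98277033, 22.9 kb) had the highest density, 83.2 sites per 100 kb, followed by Otx2 (chromosome 14, 48656781 to 48667644, 10.9 kb) with 55.2, Abcc4 (chromosome 14, 118482692 to 118707856, 225 kb) with 53.3 and Dnmt3b (chromosome 2, 153649411 to 153687730, 38.3 kb) with 52.2. Adam23 (chromosome 1, 63445717 to 63596111, 150 kb) had 41.2 and Sulf1 (chromosome 1, 12692197 to 12861192, 169 kb) 35.5. Cecr2 (chromosome 6, 120666314 to 120771191, 105 kb) had 21.0, Frmd5 (chromosome 2, 121545529 to 121807087, 262 kb) 18.7 and Kcnq3 (chromosome 15, 65986374 to 66286636, 300.3 kb) 10.3. Among 1541 other named genes with at least 5 day 3 sites the median was 16.0. Fgf5 lay at the 94.6th percentile of these genes and Kcnq3 at the 31.7th. The transcripts were chosen by their site numbers, which enter the density, so their standing among other genes is a description. With the floor of 5 sites, a short gene must also be dense to be counted. By length the order changed: the 3 primed-state markers, with few sites, were among the densest, and Kcnq3, with more sites than any of them, was the sparsest.

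The authors removed sites in overlapping genes. No RefSeq protein-coding gene overlapped any of the 9 spans, while 5 of them (Adam23, Kcnq3, Cecr2, Frmd5 and Abcc4) held 1 to 4 non-coding genes, and whether sites were removed there was not tested. Every site within the 9 spans carried the ID of the gene described, and none lay on the opposite strand. Exons and introns were not assigned, since only gene spans were at hand.

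Along the genes, day 3 sites were spread in different ways, and positions were not used to choose the transcripts. In Dnmt3b, 7 of 20 sites lay in the last 2 kb, between positions 153686479 and 153687661, the last of them 69 nt from the annotated end. Between position 153671745 and position 153678802 there was a stretch of 7.06 kb with none. Fgf5 was covered from 753 nt after its start to 971 nt before its end, and no stretch without sites was longer than 3.41 kb. The 6 sites of Otx2 lay between 48658093 and 48663887, the most upstream of them 3.76 kb from the annotated start. Dnmt3b was thus weighted to its end, while Fgf5 was covered evenly.

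Adam23 also carried its sites towards the end: 31 of 62 lay in the last of 4 equal stretches of the gene, and 21 of these within 10 kb, between 63573990 and 63582072. Sulf1 was the reverse, with 25, 22, 9 and 4 of its 60 sites in the 4 stretches in transcription order. A stretch of 31.0 kb without sites, from 12769553 to 12800559, divided it, and its last site lay 69 nt before the annotated end. Adam23 and Sulf1, alike in number of sites and in length, therefore differed in where the sites lay.

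Kcnq3 and Frmd5, the longest genes, were bound in their upstream parts. Of the 31 sites of Kcnq3, 21, 9, 1 and 0 lay in the 4 stretches, and the final 131 kb held none. Of the 49 sites of Frmd5, 23, 19, 7 and 0 did, and the final 72.8 kb held none. Cecr2 had 7, 8, 3 and 4 sites, with 8 of its 22 within 10 kb between 120701819 and 120708082. Abcc4 had 24, 28, 47 and 21, from 2.33 kb after its start to 874 nt before its end.

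Over the 9 genes, 29.8%, 28.8%, 21.3% and 20.1% of day 3 sites lay in the 4 stretches from start to end, against 26.6%, 25.3%, 24.2% and 23.9% of 20786 sites in the 1541 other genes. The last 2 kb held 15 of 389 sites (3.86%), 7 of them in Dnmt3b, against 6.29% in the other genes. Neighbouring sites lay within 50 nt of each other in 17 of 380 cases (4.47%), against 3.67% in the other genes. When sites up to 500 nt apart were joined, 173 of 389 sites (44.5%) stood in groups of at least 2, against 8314 of 20786 in the other genes. Except for the last 2 kb, these pooled shares lie near those of the other genes. A fixed 2 kb is a smaller part of a long gene. Adam23, Sulf1, Kcnq3, Frmd5 and Abcc4 lay between the 80.5th and the 93.7th percentile of span among the other genes. The part of length in the share of the last 2 kb was not tested. Grouping in single genes ranged from 16.1% grouped sites in Kcnq3 to 60% in Dnmt3b.

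**Figure D3:**
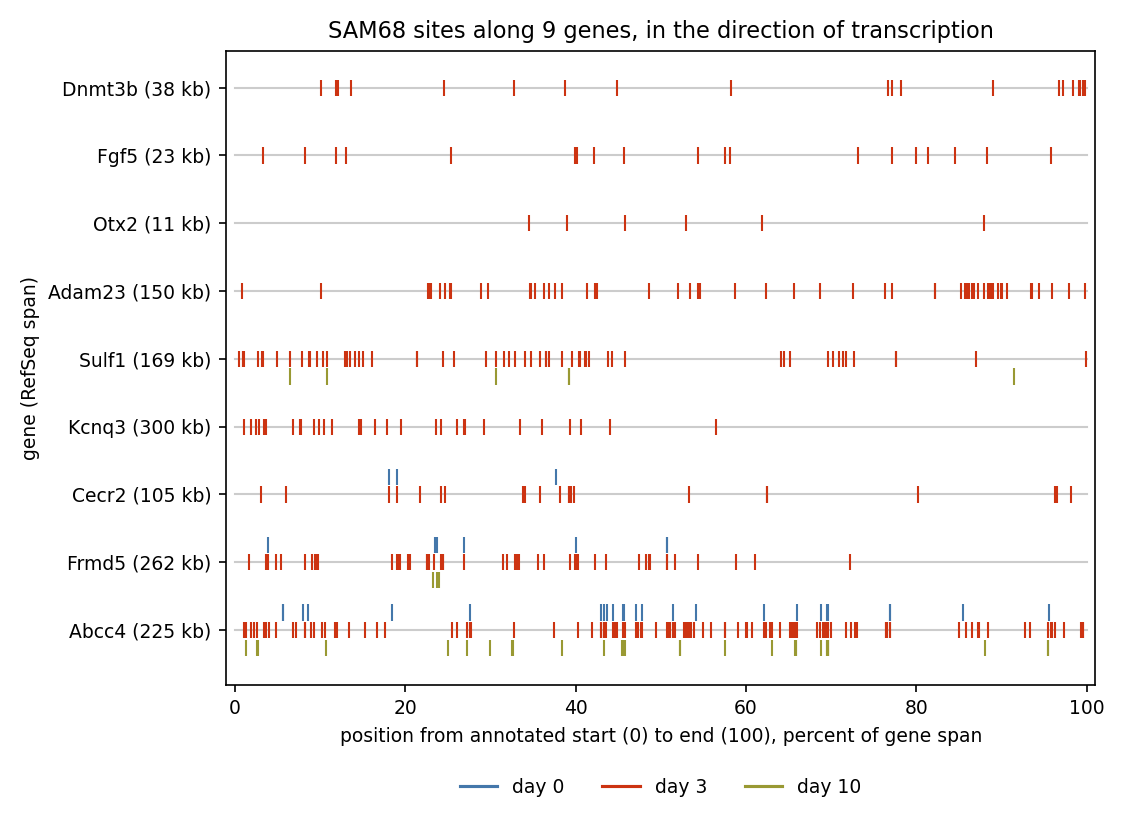
Every site of the 9 genes (rows, with the RefSeq span in kb) at its position from annotated start to end as a percent of the span (x axis), with day 0 above, day 3 on and day 10 below each line. Kcnq3 and Frmd5 have no day 3 site in the last of 4 equal stretches, whereas Dnmt3b has 11 of 20 and Adam23 31 of 62 there.

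For the transcripts with sites on other days, it was asked whether day 3 added positions or repeated earlier ones. In Abcc4, 10 of 25 day 0 sites overlapped a day 3 site by at least 1 nt, 8 of them at the identical position, and 10 of 31 day 10 sites did, 4 identically. The other way round, 105 of the 120 day 3 sites of Abcc4 overlapped no site of either other day. Called sites overlapped on every day at 4 positions of the gene, 118551424, 118604962, 118605330 and 118610247. Of these, 3 were identical on all days to the base. Between day 0 and day 10, 6 sites overlapped. One of them, 118552853, was listed on both days, with the nearest day 3 site 241 nt away. The median distance from a day 0 site to the nearest day 3 site was 30 nt, and from a day 3 site to the nearest day 0 site 1694 nt. The excess of day 3 sites was the reason for choosing Abcc4, so most of its day 3 sites had to lie apart from the fewer sites of the other days.

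In Cecr2, 2 of the 3 day 0 sites recurred on day 3, at 120686280 identically and at 120685347 shifted by 1 nt. In Frmd5, 3 of 7 day 0 sites recurred, at 121674245, 121674251 and 121736626, and none of the 3 day 10 sites did. Those 3 lay between 121744386 and 121746121. In Sulf1, 2 of the 6 day 10 sites overlapped day 3 sites, at 12703081 and 12710416. Over Abcc4, Frmd5 and Cecr2, 15 of 35 day 0 sites (42.9%) recurred on day 3, against 19.4% of 26591 day 0 sites in all genes with day 3 sites. Without Abcc4 it was 5 of 10. Over Abcc4, Frmd5 and Sulf1, 12 of 40 day 10 sites (30%) overlapped day 3 sites, against 12.2% of 60519, and without Abcc4 2 of 9. As shares of the day 3 sites in the genes bound on both days, the overlaps were 15 of 191 with day 0 (7.85%) and 11 of 229 with day 10 (4.80%). The day 3 excess for which the genes were chosen keeps these last shares low, so they were not set against other genes. The same excess gives each day 0 or day 10 site of these genes more day 3 sites to overlap. The comparisons of 42.9% with 19.4% and of 30% with 12.2% are therefore descriptions, and nothing is read from them. Sulf1, Cecr2, Frmd5 and Abcc4 had more day 3 sites per 100 kb than the median of the other genes. The part of this in the overlaps was not tested.

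**Figure D4:**
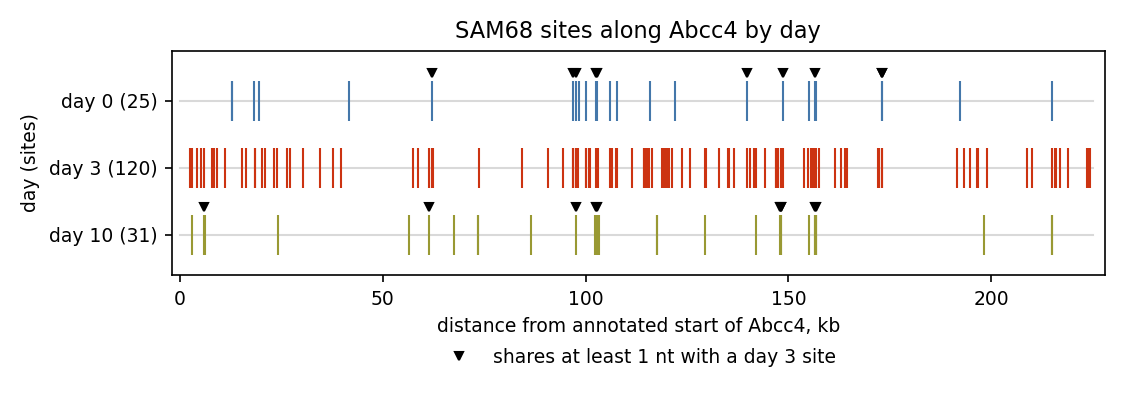
Sites of Abcc4 on each day (rows, with the number of sites) by distance from the annotated start in kb (x axis); triangles mark day 0 and day 10 sites that share at least 1 nt with a day 3 site. The 10 marked sites of day 0 and the 10 of day 10 stand beside 120 day 3 sites that run from 2.33 kb after the start to 874 nt before the end.

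Other genes of the primed and formative state were looked up in a list of 43 genes, of which 37 held a site. The list was chosen with earlier results of these data known, so its comparisons with all genes are descriptions. Without Dnmt3b, Fgf5 and Otx2, 13 of the remaining 34 (38.2%) had sites on day 3 alone, against 428 of 7288 named genes (5.87%). They included Pou3f1, Sall2, Zic2, Foxd3, Utf1, Grhl2, Tcf15 and Sall4, which encode transcription factors or chromatin proteins of pluripotent cells and the epiblast, the growth factors Fgf15 and Wnt8a, the ectoenzyme Enpp3 and the kinase Pim2. Grhl2 held the most, 0, 6 and 0 sites, and 6 of the 13 had a single site. With at least 5 sites, 3 of 16 further genes had a day 3 share 4 times both other days: Grhl2, Lin28b, which blocks maturation of let-7 microRNA, with 0, 5 and 1 sites, and Lef1, a nuclear effector of Wnt signalling, with 0, 4 and 1. The list was not uniform. Etv5, an ETS factor downstream of FGF signals, held 31, 35 and 4 sites and Rbpj, the DNA-binding effector of Notch, 45, 23 and 14, while Cdh2, N-cadherin, held 0, 0 and 69 and Sema6a, a semaphorin, 0, 4 and 44. Without the 3 markers the list held 33.3, 47.4 and 25.3 sites per 10000 on the 3 days. Of the 20 naive markers with a site, none had sites on day 3 alone, beside 5.87% of all named genes. With so few genes this lies near that share, and nothing is read from it.

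Markers of the germ layers carried few sites on day 3. Of 17 markers of primitive streak and mesoderm 3 held a site, with 0, 4 and 18 sites on the 3 days, all 4 of day 3 in Fgf8. Of 15 neuroectoderm markers 2 held a site, with 7, 2 and 28. Of 18 endoderm markers 12 held a site, with 0, 25 and 442 sites, or 8.84 and 59.5 per 10000 on day 3 and day 10. Of the 8 with at least 5 sites, 2 reached 4 times both other days, beside 3.11% of all genes. These were Lrp2 and Cubn, endocytic receptors of visceral endoderm, with 0, 7 and 0 and 0, 5 and 2 sites. Others had most sites on day 10, as Gata4 with 0, 4 and 111, Dab2 with 0, 3 and 80 and Col4a1 with 0, 2 and 87. The part of endoderm cells in the day 3 sites of the 9 transcripts was not tested.

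**Figure D5:**
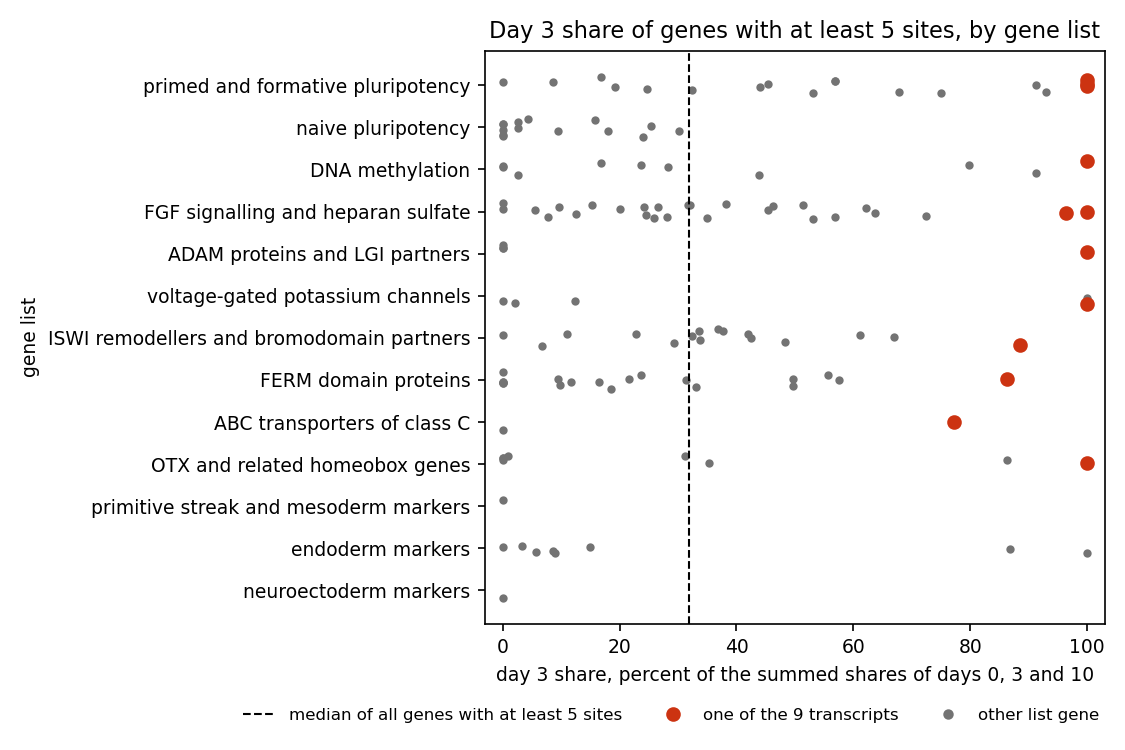
Day 3 share as a percent of the summed shares of the 3 days (x axis) for each list gene with at least 5 sites (points), by gene list (rows); points are shifted vertically for visibility, red marks the 9 transcripts and the dashed line the median of all genes, 31.9%. Primed and formative genes reach from 0% to 100%, and no naive gene lies above the dashed line.

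Relatives of the transcripts mostly had other patterns. The DNA methylation list without Dnmt3b held 24.9, 11.3 and 13.7 sites per 10000 on the 3 days. Dnmt3a, the other de novo methyltransferase, held 0, 1 and 13 sites, most of them on day 10. Hells, a helicase needed for DNA methylation, held 15, 12 and 3, Uhrf2 5, 8 and 41, and Tet2, which oxidises methylcytosine, 37, 1 and 8. Tdg, a glycosylase that removes oxidised methylcytosine, held 0, 4 and 1 and was the other gene of the 10 with at least 5 sites to reach 4 times both other days.

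In the list of FGF signalling and heparan sulfate, 2 of 27 genes with at least 5 sites reached that ratio, Fgf5 and Sulf1 themselves. Sulf2, the second endosulfatase, held 5, 1 and 2 sites. Ext1, which builds the heparan sulfate chain, held 20, 88 and 219, the glypicans Gpc6 and Gpc3 held 20, 39 and 919 and 0, 25 and 459, Gab1, an adaptor of receptor signalling, 49, 39 and 95, and Frs2, the docking protein of FGF receptors, 8, 2 and 71. By share, Gpc6 and Gpc3 were highest on day 10, with 124 and 61.8 per 10000 against 13.8 and 8.84 on day 3, while Ext1 had 31.1 on day 3 and 29.5 on day 10.

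Adam23 stood alone among 16 ADAM and LGI genes, of which 7 held a site; Adam17 held 0, 1 and 0, Adam12 0, 0 and 13 and Adam10 0, 0 and 9. Of 26 potassium channel genes 5 held a site. Kcnj3, an inward rectifier of heart and neurons, shared the pattern of Kcnq3 with 0, 16 and 0 sites, while Kcnq5, another KCNQ subunit, held 1, 1 and 122. Kcnh7 held 1, 1 and 16 and Kcnb2 0, 0 and 10. Outside the list, the channel genes Kcng3, Kcnk1 and Kcnt2 were chosen after their values were seen. Kcng3 held 0, 7 and 0 sites, Kcnk1 0, 9 and 1, and Kcnt2 3, 6 and 1, and nothing is read from them. Of the class C transporters, Abcc5 was the other gene with sites, with 6, 0 and 4.

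Cecr2 was the one gene of 16 ISWI and bromodomain genes with at least 5 sites to reach 4 times both other days. Bptf, the bromodomain subunit of the NURF remodeller, held 10, 17 and 23, Rsf1 8, 16 and 37 and Baz2b 28, 4 and 74. Frmd5 was likewise the one of 19 FERM genes. The phosphatases Ptpn4 and Ptpn13 held 14, 21 and 21 and 0, 18 and 48, Farp1 2, 5 and 121 and Epb41l3 0, 0 and 79. Beside Otx2, Tgif1, a homeobox repressor of TGF-beta targets, reached it with 1, 6 and 0, while Pbx3 and Meis2 held 4, 27 and 147, and 36, 1 and 186. Over all lists, 8 of 118 genes other than the 9 transcripts reached it (6.78%), against 3.11% of all genes. At 2 times both other days, 13 of the 118 were called (11.0%), against 10.3% of all genes. The lists were chosen with earlier results of these data known, so these shares are descriptions.

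The genes most like the 9 were sought by the measure that describes them, the day 3 share as a percent of the summed shares over the 3 lists. At 80% or more and at least 10 day 3 sites stood 28 of 724 named genes (3.87%), 7 of the 9 transcripts among them; Abcc4 at 77.1% and Otx2 with 6 sites fell short. The 10 others with most day 3 sites included Cadm1, an adhesion molecule of the immunoglobulin superfamily, with 5, 78 and 20 sites, and Klf12, a zinc finger repressor, with 2, 50 and 12. Platr22, a long non-coding RNA, was among them with 5, 39 and 0, Mtcl1, a microtubule protein, with 4, 29 and 9, Qser1 with 1, 26 and 9, Zmynd8, a chromatin reader, with 2, 25 and 8, and Pphln1 with 1, 23 and 7. Bcl11a, a transcription factor, with 0, 19 and 1 and Esrp1, an epithelial splicing regulator, with 0, 19 and 8 also belonged to them. Sites on day 3 alone, at least 10 of them, were found in 11 of the 724 genes (1.52%), namely Adam23, Kcnq3, Dnmt3b and Fgf5 and 7 others: Pdzd4 (17 sites), Kcnj3 (16), Slc7a7 (14), Dpp6 (13), B3galt1 (11), Nav2 (11) and Sema3e (11).

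To show what such sites look like, bases were read where RefSeq windows of 250 bases before to 50 after an annotated start covered a day 3 site. No site of the 9 transcripts fell in such a window, so the sequences come from the 28 genes with this pattern, of which 3 had 4 sites covered. They are given 5′ to 3′ on the strand of the RNA, in DNA letters of GRCm38.p6, with the 5 nt site in capitals.
Slc7a7, chr14:54417739-54417763, minus strand: gggttggaatTTTTGgtcagtccgc
Zmynd8, chr2:165880178-165880202, minus strand: gactttctacATTTTtaccctggcc
Platr22, chr1:136696231-136696255, plus strand: ccgtttcctcTTTGTttagttagcg
Platr22, chr1:136696236-136696260, plus strand: tcctctttgtTTAGTtagcgattac
T (U in the RNA) made up 9, 10, 12 and 12 of the 25 bases in the order given, against a median of 8 over the 89 day 3 sites of all named genes that such windows covered. Neither TAAA nor TTAA was among the letters on the strand of the RNA in these 4, against 3 (3.37%) and 4 (4.49%) of the 89. Counted on either DNA strand, TAAA was in 3 of the 4 and in 10 of the 89 (11.2%). In these 3, the Platr22 pair among them, it stood on the strand opposite the RNA. The strand of the RNA reads TTTA there, so this is no TAAA in the RNA. TTAA reads the same on both strands. With 4 sites, of which the Platr22 pair overlap, these are descriptions only.

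The nearest genes by their sites, with at least 5 sites, on each side of the 9 transcripts, 18 in all, had sites on most days, 14 of them on day 0, 17 on day 3 and 16 on day 10, with 124, 158 and 295 sites in total. Next to Dnmt3b lay Asxl1, with 18, 24 and 25 sites, and next to Frmd5 Golm2, with 10, 19 and 20. Of the 18, 2 reached 4 times both other days, beside 128 of 4122 named genes with at least 5 sites (3.11%). The first was Cfap299, downstream of Fgf5 on the same strand, with 0, 8 and 0 sites, the nearest of them 121 kb past the end of Fgf5, between 98397924 and 98596489 of chromosome 5. The second, A830018L16Rik, held 1, 6 and 0, the nearest of them 1086 kb from Sulf1.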

How the data were processed

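SAM68 iCLIP2 was performed on 15 libraries, 5 per day. Per the labels' protocols, cells were crosslinked at 254 nm with 150 mJ/cm2, RNase I left RNA of 50 to 200 nt, and molecular identifiers were ligated to the cDNA. The submitters' processing notes name STAR 2.7.11a, UMI-tools 1.1.6, bedtools 2.31.1, SAMtools 1.22.1, FastQC 0.12.1 and MultiQC 1.31 without their roles, with GRCm38.p5 and GRCh38.p14 as builds; the site caller and the handling of replicates were not given in the sources used here. Per the file headers, the authors assigned sites to genes and removed those in overlapping genes. The deposited score is 0 for every site and was not used. Positions are site centres, counted from 1.

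Gene IDs were named by position from a RefSeq table of GRCm38.p6, where a gene span of the same class held at least 80% of the sites: 7288 of 7949 IDs (91.7%). Each of the 9 transcripts matched 1 ID on 1 strand, and all 6 with a strand in the RefSeq window table matched it. Ratios of shares have exact conditional binomial intervals. Other genes were named by rule: the 10 with most day 3 sites among genes with the same pattern, and from each list up to 4 genes by day 3 sites and 2 by all sites. Other named genes were chosen after their values were seen, and some genes that the rule names are not reported here. Lists share some genes. The transcripts and lists were chosen with earlier results of these data known. The functions were tested on simulated data. Python 3.11.15, NumPy 2.4.6, pandas 2.3.3, SciPy 1.17.1 and matplotlib 3.10.9 were used.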

Additional observations from a re-analysis of the deposited data

How the results depend on the processing

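In all 9 transcripts day 3 held the highest share under list length, the median ratio of genes with at least 5 sites on every day, sites in protein-coding genes, the number of bound genes, and counting of clusters within 50 nt. The transcripts were chosen for a day 3 peak, and 5 were listed at 0 on both other days, where no scaling can change the order. Nothing is read from this count. The summed day 3 share was 11.7 times that of day 0 and 25.6 times that of day 10. For day 10 it was 18.3 times under the median ratio and 12.3 times under the number of bound genes; without Abcc4, an alternative chosen after seeing the data, the ratios were 28.3 and 78.6. Of the ratios of single genes, Abcc4 for day 3 over day 10 left its interval, at 4.88 under the number of bound genes. The count of 128 of 4122 genes with a day 3 peak (3.11%) was 77 of 4122 (1.87%) under the number of bound genes. It was 56 of 2768 (2.02%) with at least 10 sites and 588 of 7288 (8.07%) without a filter. With at least 10 sites, 8 of the 9 transcripts were called, since Otx2 held 6. Of day 3 sites in the 9 genes, 22 overlapped a site of another day, 12 at identical positions, and 7 without Abcc4. The day 3 excess for which the genes were chosen keeps these counts low, so nothing is read from them. The median position of their sites was 42.2% of the span, and 49.4% as the median of the genes' medians. At 2 times both other days, 13 of 118 list genes (11.0%) in place of 8 were called, near the 10.3% of all genes. Densities and clusters stayed within 1.5 times, and counting sites by gene span in place of ID gave the same numbers.

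No paired analysis was possible because each deposited list combines its 5 libraries; no library can be left out for the same reason. The search for motifs around sites of the 9 genes was not run, as no genome was used here. Depth is unknown, so genes listed at 0 carry no limit.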
